A study of Drosophila melanogaster with 4 samples.

Results

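Broad Hsp90 domains on chromosomes 2 and 3 of Drosophila melanogaster are described here from chromatin immunoprecipitation followed by sequencing (ChIP-seq). Overlapping peaks of both replicates on the arms 2L, 2R, 3L and 3R were merged, and a merged region was kept as a domain when each replicate had at least 1 peak in it and it measured 3000 bp or more. This gave 429 domains among the 7151 shared regions of these arms (6.00%) and the 9015 shared regions of the whole series. The chromatin came from DRSC-S2 cells, a cultured Drosophila line, kept at 25 °C and fixed with formaldehyde for 15 min while growing exponentially. The series has 4 samples, 2 biological replicates precipitated with an Hsp90 antibody and 2 of input chromatin that saw no antibody. No treatment, time course or second genotype is named in the labels, so all samples share 1 condition of 1 line, and the antibody is not a commercial one. The depth behind replicate 1 was 13383895 unique ChIP tags, and that behind replicate 2 was 17401846.

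Hsp90 is a molecular chaperone that holds client proteins, among them kinases, steroid receptors and chromatin regulators, in a form that can be activated. In Drosophila it has been tied to Trithorax, a chromatin protein that keeps active genes active, and paused promoters, where RNA polymerase waits shortly after the start of a gene, stand in the title of the series. At a promoter a bound factor usually gives a narrow peak, while a wide stretch of signal in ChIP-seq means that fragments were recovered along the whole of it. Positions below are in build dm3 and count from 1. No gene annotation of that build was used, so domains are named by position and no gene is assigned to them.

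The domains were the long tail of a continuous range of lengths. Their median length was 4060 bp (interquartile range 3469 to 5257 bp), against 949.5 bp (683 to 1389 bp) for the 6722 shorter shared regions of the same arms. Of the 429 domains, 225 measured at least 4000 bp, 129 at least 5000 bp and 18 at least 10000 bp. They covered 2.16 Mb, which is 22.4% of the 9.61 Mb in all shared regions of these arms. The members were chosen by their length, measured on these same peaks, so these values are a description. The threshold falls inside a smooth slope: the 3 shortest domains were those on 3L from 4224702 to 4227703 (3002 bp), on 3R from 7390448 to 7393454 (3007 bp) and on 3R from 5516743 to 5519755 (3013 bp). Just outside were the regions on 3R from 17482077 to 17485075 (2999 bp), from 27244852 to 27247848 (2997 bp) and from 10194961 to 10197951 (2991 bp). The folds of the best peaks, which are the authors' ratio of ChIP over the background expected from input, were 7.45, 8.74 and 3.89 inside the threshold and 7.39, 7.37 and 4.93 outside it in replicate 1. In replicate 2 they were 6.01, 8.06 and 4.09 inside and 6.95, 5.88 and 5.10 outside.

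**Figure D1:**
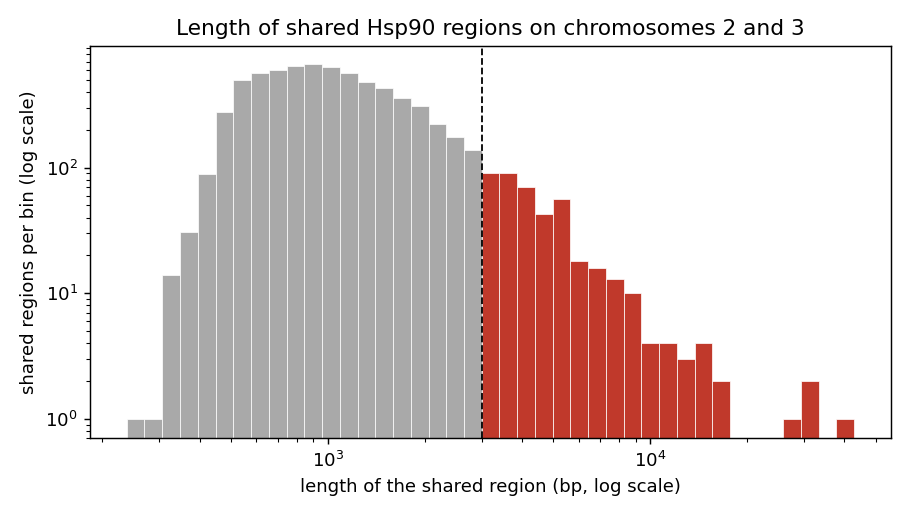
Number of shared Hsp90 regions on chromosomes 2 and 3 (vertical log axis) per bin of region length in bp (horizontal log axis). The dashed line is the 3000 bp threshold, and red bars are the 429 domains, which continue the slope of the 6722 shorter regions in grey. The slope is broken by a rise from 43 regions at 4387 to 4979 bp to 56 at 4979 to 5651 bp.

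Most domains were not a single wide call in both lists. In replicate 1, 190 domains held 1 peak, 154 held 2 and 85 held 3 or more. In replicate 2, 253 held 1 peak, 130 held 2 and 46 held 3 or more. Only 128 domains (29.8%, exact 95% binomial interval 25.5 to 34.4%) had 1 peak in each list. Replicate 2 had fewer peaks than replicate 1 in 161 domains and more in 77. A single peak of 3000 bp or more was present in 194 domains in replicate 1, in 260 in replicate 2 and in 116 in both lists, while 91 had none in either. From the first to the last peak, 289 domains (67.4%) spanned 3000 bp or more in both replicates, 65 in replicate 1 alone, 65 in replicate 2 alone and 10 in neither. These last 10 reached the threshold through peaks that are staggered between the lists. The peak caller worked with different fragment shifts, 111 bp in replicate 1 and 78 bp in replicate 2, and the part of this setting in how calls were divided was not tested.

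By the merging, every base of a domain is called in at least 1 list, and each list alone covered most of a typical domain. Peaks of replicate 1 covered a median of 96.0% of a domain (interquartile range 87.5 to 98.9%), and peaks of replicate 2 also 96.0% (84.6 to 99.3%). In the shorter regions the medians were 96.8% in replicate 1 and 89.2% in replicate 2. Bases called in both lists made up a median of 84.9% of a domain. The outer ends lay close: starts differed by a median of 110 bp between replicates and ends by 115 bp. The summit of the best peak was within 100 bp in 262 of 429 domains (61.1%), against 5585 of 6722 shorter regions (83.1%), and the median distance in the domains was 36 bp. In 335 domains it was within 1000 bp.

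The place of the best summit varied more in the domains than in the shorter regions. On a scale from 0 at the lower coordinate to 1 at the upper, its position had a median of 0.54 (interquartile range 0.29 to 0.77) in replicate 1 and 0.53 (0.29 to 0.77) in replicate 2. In the shorter regions the medians were both 0.50, with narrower ranges of 0.37 to 0.64 and 0.36 to 0.65. The outermost 20% on either side held the best summit in 146 domains (34.0%) in replicate 1 and 158 (36.8%) in replicate 2, against 10.6% and 13.0% of the shorter regions. These outer parts together are 40% of the length. In bp the summit lay a median of 1097 and 1091 from the nearer end, against 295 and 288 in the shorter regions. These shares are set side by side with no test, since length is what separates the classes.

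The share of tags in the domains was somewhat above their share of the called sequence. Their peaks held 697528 tags of replicate 1 and 979506 of replicate 2, which is 5.21% and 5.63% of the unique tags of each library. Of the tags in all peaks on chromosomes 2 and 3, the domains held 23.1% and 24.4%, while their peaks were 19.2% and 21.3% of the peak length and 8.83% and 7.09% of the number of peaks there. The number of tags per domain ran from 231 to 17114 with a median of 1303 in replicate 1, and from 297 to 22176 with a median of 1791 in replicate 2. Normalised to 1000000 unique tags of the library, called normalised tags from here on, the medians were 97.4 and 103, so the libraries lay close on this scale. Tag density, the normalised tags per kb of peak, had medians of 26.9 and 27.1 in the domains, against 19.9 and 21.9 in the shorter regions.

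The fold over input differed less between the length classes than the tags did. The best peak of a domain had a median fold of 5.93 (interquartile range 4.54 to 7.17) in replicate 1 and 5.29 (4.32 to 6.49) in replicate 2. In the shorter regions the medians were 5.16 (3.99 to 6.58) and 5.24 (4.19 to 6.59). The quartiles overlapped widely in both lists. A false discovery rate under 5%, as MACS listed it for the best peak, was found for 152 domains (35.4%) in replicate 1 and 404 (94.2%) in replicate 2. Over all shared regions of these arms the share was 9.96% in replicate 1 and 67.9% in replicate 2. Length, tags and these rates come from the same comparison of ChIP with input, so nothing is read from the difference. In replicate 1 the rate did not fall steadily as the score, -10 times log10 of the p-value, rose. The best peak of a 32256 bp domain on 2L scored 3100 and had a rate of 8.33%. That of the domain on 2L from 3055095 scored 1465.62 and had a rate of 4.18%. A rate of 5% or more in replicate 1 therefore does not mark a weak call by itself.

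Median folds did not rise with length. From 3000 to under 4000 bp (204 domains) the median folds were 6.12 and 5.60 in replicates 1 and 2, from 4000 to under 5000 bp (96 domains) 6.05 and 4.93, from 5000 to under 10000 bp (111 domains) 5.38 and 4.98, and at 10000 bp and over (18 domains) 5.94 and 5.44. Tag density went the other way, with medians of 25.1 and 26.4 in the shortest class and 33.5 and 32.0 in the longest. Across the 429 domains, length and fold had a Spearman rho of -0.13 in replicate 1 and -0.17 in replicate 2, and length and density one of 0.23 and 0.18. Among the 363 domains whose tags differed by at most 1.5-fold between replicates, rho was -0.02 and -0.09 for fold and 0.16 and 0.12 for density. These values describe regions that share libraries and peak calls.

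**Figure D2:**
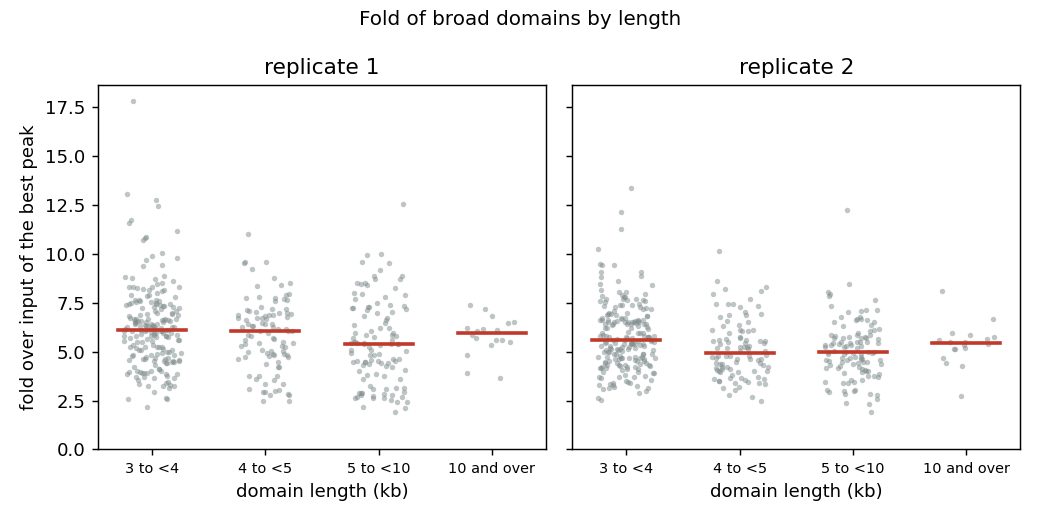
Fold over input of the best peak (vertical axis) of each domain by class of domain length in kb, for replicate 1 and replicate 2. Each grey point is a domain and each red line a class median, which in replicate 1 runs from 6.12 in the shortest class to 5.94 in the longest and in replicate 2 from 5.60 to 5.44.

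The 10 longest domains, all of 14268 bp or more, lay on 3L (4), 3R (4) and 2L (2), and none was on 2R, where the longest domain measured 9029 bp. They held 13.5% of the domain tags in replicate 1 and 13.0% in replicate 2. Replicate 1 had more peaks than replicate 2 in each of these 10. The longest, 39903 bp on 3L from 537895 to 577797, had 6 peaks in replicate 1 with folds from 2.55 to 6.03, and 2 in replicate 2 with folds of 4.27 and 4.40. It had 1279 and 1274 normalised tags in the replicates. The second, 32256 bp on 2L from 476562 to 508817, had 1267 and 1124 normalised tags, and 7 peaks in replicate 1 matched 2 in replicate 2, the wider of which ran over 25818 bp. On 3L the domain from 3384971 to 3416313 was a single peak of 31304 bp in replicate 2, with 18229 tags, and 5 peaks with 11798 tags in replicate 1. The domain with the most peaks was the fourth longest, on 3L from 3433801 to 3460989, with 12 peaks in replicate 1 and 4 in replicate 2 and nearly the same normalised tags, 818 and 821. After it and the domain on 2L from 476562, the most peaks, 9 over both lists, were in domains on 3R from 19145475 to 19154482 and from 19612225 to 19620095, each with 5 and 4. The domain on 2L from 8232088 to 8240393, with 5 and 3, tied at 8 with the longest domain and with the one on 3R from 19154585.

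The other 6 measured 14268 to 16387 bp. On 3R the 16387 bp domain from 26624956 to 26641342 had 482 and 478 normalised tags, and the 16377 bp domain from 19154585 to 19170961 had 552 and 595, with folds of the best peak of 7.38 and 8.09. The domain on 2L from 19565543 to 19580881 had 481 and 496 normalised tags, the one on 3L from 763580 to 778369 had 599 and 580, and the one on 3R from 25681856 to 25696123 had 397 and 389. In 9 of the 10 longest domains the replicates differed by at most 1.19-fold. The eighth longest was the exception: on 3R from 11838891 to 11854093 the peaks held 259 normalised tags in replicate 1 and 498 in replicate 2. There bases called in both lists made up 42.5% of the length, and peaks of replicate 1 began 6936 bp into the domain.

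Domains dense in tags were not the ones with the highest folds. The 5 densest measured 4677 bp on 3L from 3416326 to 3421002 (densities of 46.6 and 48.9 in replicates 1 and 2), 4403 bp on 2R from 9894059 to 9898461 (47.5 and 47.9), 4521 bp on 2R from 6426778 to 6431298 (50.5 and 44.8), 3053 bp on 2L from 12009861 to 12012913 (47.7 and 47.2) and 8252 bp on 2L from 5976963 to 5985214 (46.7 and 47.4). Their folds were between 5.52 and 8.70. The highest mean fold was that of a 3060 bp domain on 3R from 19014623 to 19017682, with 17.84 in replicate 1 and 13.36 in replicate 2. It was followed by domains on 3R from 25924388 to 25927510 (12.74 and 12.12), on 2L from 12456892 to 12461995 (12.53 and 12.23), on 2R from 7091785 to 7095440 (13.06 and 11.29) and on 2R from 5912620 to 5915808 (12.46 and 9.05). In 4 of these 5 the summits of the replicates lay within 16 bp, and in the domain from 25924388 they were 86 bp apart.

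Most domains had similar normalised tags in both replicates, and so did most shared regions of these arms. Of the 429 domains, 363 (84.6%) differed by at most 1.5-fold in normalised tags, and among these, bases called in both lists made up a median of 87.5% of the length. In 50 domains (11.7%) replicate 2 was over 1.5-fold higher, and in 16 (3.73%) replicate 1 was. Over all shared regions of these arms the shares were 5.66% for replicate 2 higher and 7.55% for replicate 1 higher. On the log2 scale, replicate 2 against replicate 1, the median was -0.00 with quartiles of -0.12 and 0.15 over all domains. Normalised tags correlated between the replicates with a Spearman rho of 0.60 over the 429 domains, lower than the 0.89 over the 6722 shorter regions. The 5 domains with the lowest mean fold were all among the 50 that were higher in replicate 2: they lay on 3R from 6631053 (1.92 in both replicates), on 2R from 6546681 (2.17 and 2.30), on 3L from 10053208 (2.44 and 2.38), on 3L from 2966804 (2.13 and 2.76) and on 2L from 4602468 (2.41 and 2.60), and measured 6335 to 6768 bp.

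The 50 domains higher in replicate 2 were mostly called along their whole length in replicate 2 and over a part in replicate 1. Peaks of replicate 2 covered a median of 100% of them, and peaks of replicate 1 a median of 28.4%. Tags are counted within peaks alone, so the ratios of these domains also follow the called length. Per kb of peak, their median densities were 30.2 in replicate 1 and 27.7 in replicate 2. The median length of the 50 domains was 5222 bp, and 43 of them had 1 peak in each list. The most uneven was the domain on 3R from 6631053 to 6637387, with 24.0 normalised tags in replicate 1 and 215 in replicate 2, where the peak of replicate 1 measured 492 bp. Next came domains on 3L from 10053208 to 10059720 (26.7 and 236), on 2L from 15586383 to 15591783 (21.8 and 169), on 3L from 16609515 to 16615079 (22.8 and 175) and on 2R from 10972335 to 10977847 (21.6 and 166). Their ratios of replicate 2 over replicate 1 were 7.70 to 8.95. The 16 domains higher in replicate 1 were shorter, with a median of 3826 bp, and there peaks of replicate 2 covered a median of 48.7%.

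Among the domains higher in replicate 2, groups with similar lengths and tag counts lay at places far apart. Domains were linked when their length, their tags in replicate 1 and their tags in replicate 2 each differed from those of at least 1 other member by at most 0.2 on the log2 scale, and 35 of the 50 fell into 3 sets of at least 5. This grouping was chosen after the values were seen and has no test, and members of a set can differ by more than 0.2. By the same links 5 of the 16 domains higher in replicate 1 formed a set, and 342 of the 363 that differed by at most 1.5-fold (94.2%) formed a single one, so nothing is read from the share that fell into sets. Set A held 23 domains of 4646 to 5578 bp, 9 on 2L, 5 on 2R, 5 on 3L and 4 on 3R. Their peaks held 543 to 625 tags in replicate 1 (median 585) and 2149 to 2919 in replicate 2 (median 2449), and neighbours of the set on an arm lay a median of 2210 kb apart. In replicate 1 the called part measured 1343 to 1575 bp. Its summit stood 1000 to 1600 bp from the nearer end of the domain in 19 of the 23, from the lower end in 11 and from the upper end in 8.

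The other sets were smaller. Set B held 6 domains of 3404 to 4737 bp with 551 to 607 tags in replicate 1 and 1433 to 1648 in replicate 2. Set C held 6 domains of 5401 to 5671 bp with 289 to 364 tags in replicate 1 and 2815 to 3054 in replicate 2. Its folds were 3.15 to 4.51 in replicate 1 and 3.46 to 3.78 in replicate 2, while the normalised tags of its domains differed by 5.95-fold to 7.74-fold. Per kb of peak, the median densities of set C were 31.4 in replicate 1 and 31.3 in replicate 2. Within the ranges of length and tags of set A lay 3 further shared regions on X and 3 on chromosome 4 or scaffolds, and within those of set C 1 and 1. How reads that match several places were treated is not given in the sources used here, and the part of such reads in these sets was not tested.

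**Figure D3:**
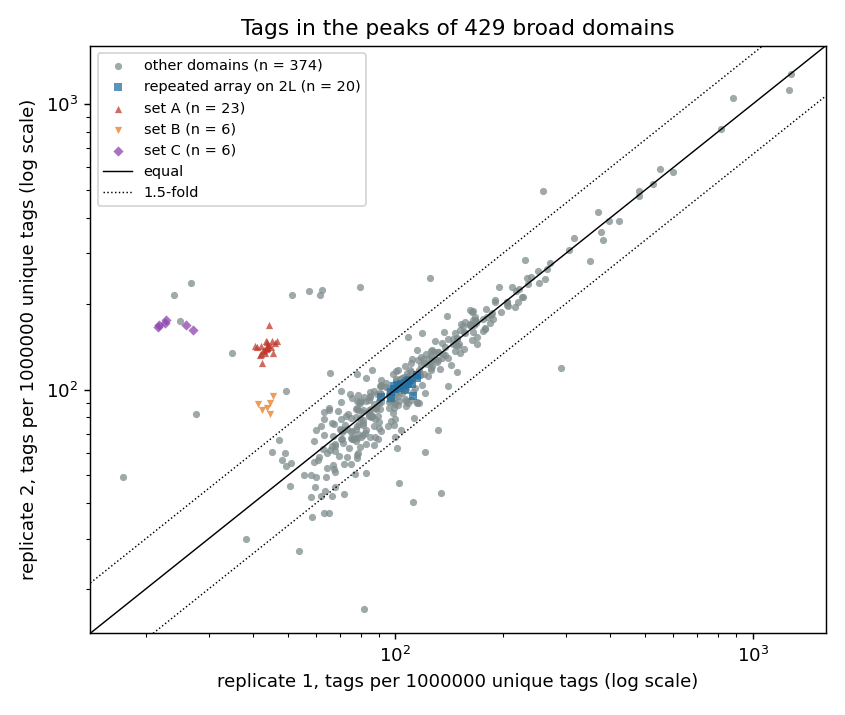
Normalised tags (per 1000000 unique tags) in the peaks of each of the 429 domains, replicate 1 on the horizontal and replicate 2 on the vertical log axis, with the line of equal values and dotted lines at 1.5-fold. Sets A, B and C stand as compact groups above the upper dotted line by construction, since they were linked by these tags among domains higher in replicate 2. The 20 domains of the array on 2L form a compact group on the line of equal values.

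A row of 20 domains on 2L had a regular spacing. They lay between 21416804 and 21539687, over 123 kb, and in 16 of the 19 steps from one domain to the next the starts were 4741 to 5169 bp apart (median 5046 bp). In the other 3 steps the starts were 9972, 14048 and 15169 bp apart, and shared regions under 3000 bp, 6 in all, stood inside the row. The domains measured 3464 to 4089 bp, with gaps of 902 to 1260 bp between those at the regular step. Each held 2 peaks (13 domains) or 3 peaks (7 domains) in replicate 1, and 1 peak (13 domains) or 2 peaks (7 domains) in replicate 2.

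The domains of this row also had nearly equal tags. They held 1221 to 1541 tags in replicate 1, 1401 ± 85.6 (SD, n = 20 domains), and 1628 to 1957 in replicate 2, 1787 ± 87.1 (SD, n = 20 domains). Over the 108 other domains of 3400 to 4100 bp outside the sets, the SDs were 310 and 440 tags, around means of 1205 and 1571. The folds were 4.53 to 7.58 in replicate 1 and 3.12 to 4.67 in replicate 2. All 20 domains differed by at most 1.5-fold between replicates in normalised tags. In replicate 1 the best summit lay 3000 to 3500 bp from the start of the domain in 17 of the 20, and in replicate 2 in 12 of the 20. The row was picked after its values were seen. No test was made on it, and the part of reads that match several units was not tested.

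**Figure D4:**
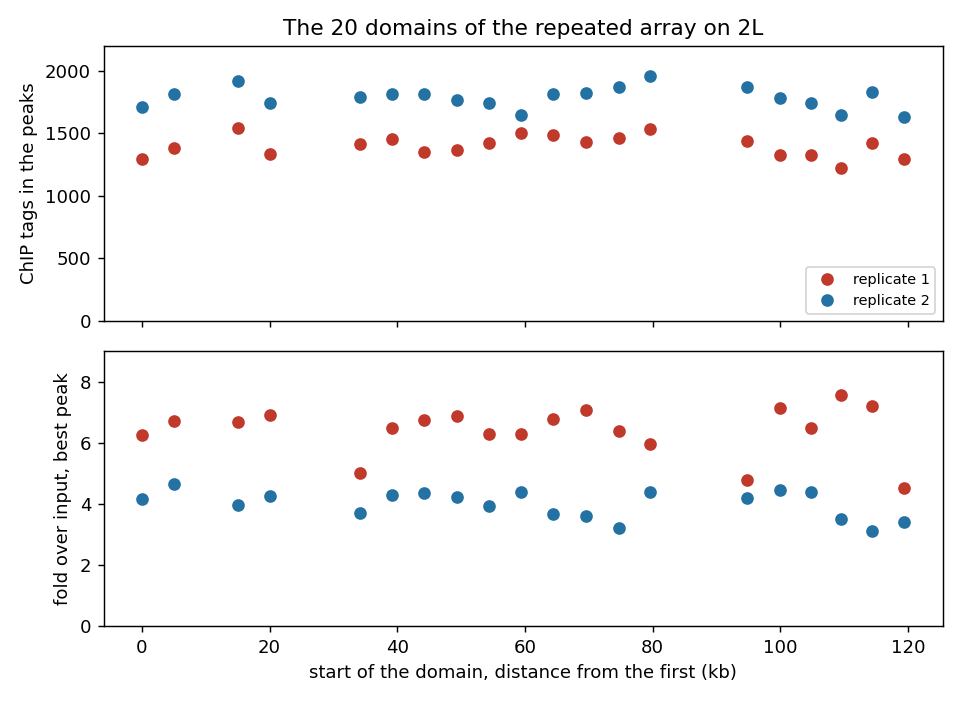
ChIP tags in the peaks (upper panel) and fold over input of the best peak (lower panel) of the 20 domains of the array on 2L, against the distance in kb of each start from the first. Tags stay between 1221 and 1541 in replicate 1 (red) and between 1628 and 1957 in replicate 2 (blue), and the starts fall at steps of about 5046 bp apart from 3 longer ones.

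Domains often stood next to other Hsp90 regions. The median gap to the nearest shared region was 447 bp (interquartile range 75 to 2384 bp), against 938 bp (142 to 3705 bp) for the shorter regions. A shared region lay within 500 bp of 219 domains (51.0%) and of 41.0% of the shorter regions. Within 5000 bp the shares were 88.3% of the domains and 80.9% of the shorter regions. Linking domains with gaps of at most 5000 bp put 156 of them (36.4%) into chains of 2 or more, and 90 into chains of 3 or more. Only 5 of the 50 domains higher in replicate 2 stood in a chain, against 7 of the 16 higher in replicate 1 and 144 of the 363 that differed by at most 1.5-fold. The 144 include the 20 domains of the regular row. Without the sets and the array the median gap was 283 bp.

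The longest chain covered 76.0 kb on 3L from 3384971 to 3460989. Its 4 domains filled 98.4% of it, with gaps from 12 to 1208 bp, and held 2228 and 2436 normalised tags in replicates 1 and 2. Folds of their best peaks were 5.48 to 6.09 in replicate 1 and 5.20 to 5.97 in replicate 2. On 2L, 3 domains from 476562 to 524123 filled 99.8% of 47.6 kb, with gaps of 29 and 54 bp, and held 1726 and 1498 normalised tags. The middle one of these, from 508847 to 512194 and named after its values were seen, had 1091 tags in replicate 1 and 297 in replicate 2. A further 6 domains on 3R from 11830428 to 11878127 filled 88.5% of 47.7 kb and held 982 and 1227 normalised tags. Also on 3R, 5 domains from 19139062 to 19182824 filled 92.7% of 43.8 kb, with 1238 and 1162. The remaining chain among the 5 longest was the part of the regular row on 2L from 21450934 to 21500501, with 10 domains in 49.6 kb.

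**Figure D5:**
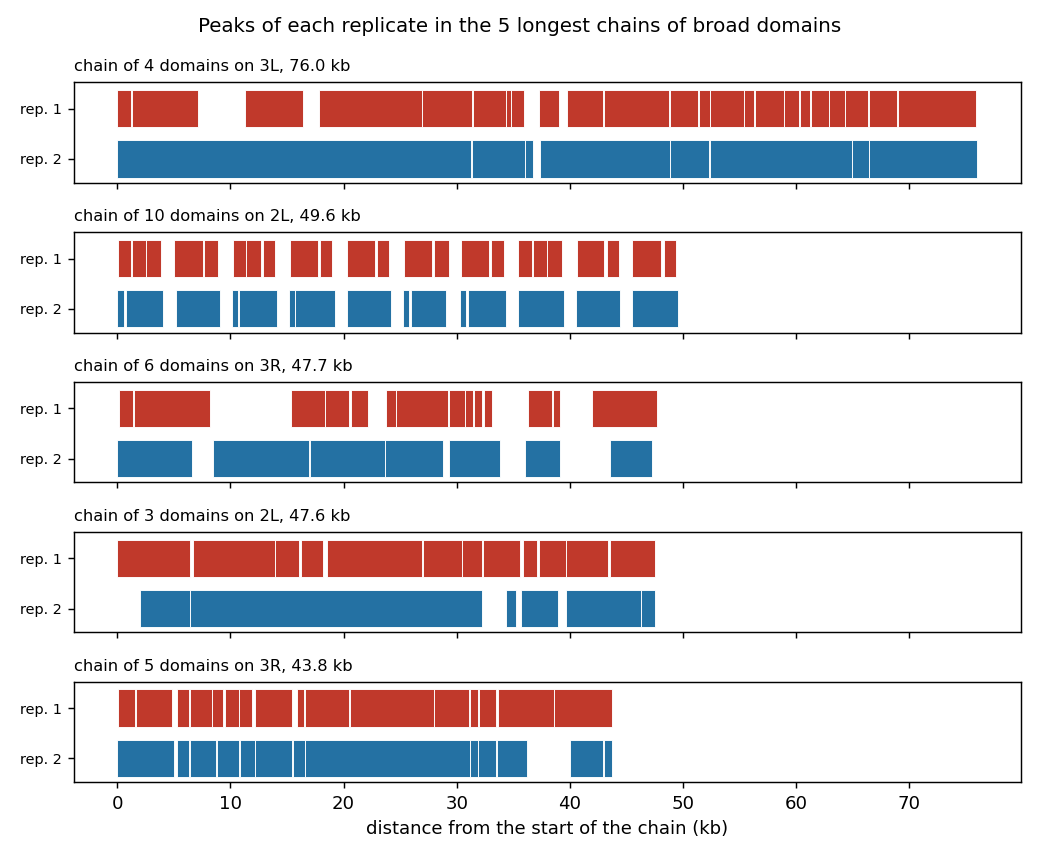
Peaks of replicate 1 (red, upper row of each panel) and replicate 2 (blue, lower row) in the 5 longest chains of domains, by distance in kb from the start of the chain. In the 76.0 kb chain on 3L, peaks of replicate 2 follow each other almost without a gap. Replicate 1 has gaps there, such as those from 7097 to 11319 bp and from 16388 to 17846 bp. The 10 domains of the chain on 2L repeat at regular steps.

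The arms differed in how many domains they carried. Of the shared regions, domains made up 117 of 1638 on 2L (7.14%, exact 95% binomial interval 5.94 to 8.50%), 139 of 2020 on 3R (6.88%, 5.82 to 8.07%), 90 of 1751 on 3L (5.14%, 4.15 to 6.28%) and 83 of 1742 on 2R (4.76%, 3.81 to 5.87%). The intervals of 2L and 2R did not overlap, those of neighbours in this order did, and all count regions as independent, which neighbouring regions are not. 2R had the highest density of shared regions, 82.4 per Mb, with 3.93 domains per Mb, while 2L and 3R had 5.09 and 4.98 domains per Mb with 71.2 and 72.4 shared regions. Without the sets A, B and C and the regular row, the domains per Mb were 3.56 on 2L, 3.60 on 2R, 3.37 on 3L and 4.80 on 3R. On this measure 2L was no longer above 2R. The shares among shared regions were not computed without the sets and the row. On the X chromosome 48 of 1357 shared regions measured 3000 bp or more (3.54%, 2.62 to 4.66%).

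On 3L most domains lay toward the telomere. With the span of each arm cut into 3 equal parts, 64 of the 90 domains of 3L lay in the part nearest the telomere, 19 in the middle and 7 nearest the centromere, while all shared regions of 3L were spread as 581, 640 and 530. The densest bin of 1 Mb on any arm, with 23 domains, was the first of 3L, from 27620 to 1027619. On 2L the most were 22, in the bin from 21005511 to 22005510, which holds the regular row. On 2L the 3 parts held 36, 34 and 47 domains from the telomere on, and the 47 include the 20 of the regular row. On 2R they held 19, 34 and 30, and on 3R 53, 36 and 50. All shared regions were spread as 593, 615 and 430 on 2L, 568, 658 and 516 on 2R, and 613, 707 and 700 on 3R. The longest stretch without a domain was 3590 kb on 3L from 17427225 to 21017583, against 1400 to 1748 kb on the other arms.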

How the data were processed

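Sonicated chromatin was gel-selected at about 250 bp and amplified by 18 PCR cycles before Illumina sequencing, per the labels' protocols. No molecular identifiers are named there. Binomial intervals are on counts of regions and hold counting error alone. Bowtie and the build dm3 (BDGP5) are named by the submitters' processing notes. Per the file headers, the authors ran MACS once per replicate, each with a separate input, at a p-value cutoff of 1e-05, and the model fold was set to 6 for the first replicate and to 4 for the second. The deposited tags are a raw count per peak. The deposited fold enrichment is the authors' ratio over input background. The deposited score is -10 times log10 of the p-value. The deposited false discovery rate is a percent. Processed files of the inputs were not analysed here.

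Peaks were joined at an overlap of 1 bp. Tags of a domain are the sum over its peaks, scaled by the library's unique tags. The best peak is the one with the highest score, and 15 domains in replicate 1 and 32 in replicate 2 had the score of 3100 that many peaks share. Domains were named by rank in length, fold, density, ratio between replicates and number of peaks, and by closeness to the threshold. The members and lists were chosen with earlier results of these data known, and the regular row and the sets after their values were seen. The planned description of sequences was not made, since no genome of this build was used. With 2 samples of 1 condition, and a rule that used the same peaks, no test was made. The alternatives were a stricter overlap, a median score, a rate under 5%, joining within 500 bp, a threshold of 5000 bp and 1 list alone, and, added after the data were seen, leaving out the sets and the row. The joining step was tested on simulated data. Software was Python 3.11.15 with pandas 2.3.3, numpy 2.4.6, matplotlib 3.10.9 and scipy 1.17.1.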

Additional observations from a re-analysis of the deposited data

How the results depend on the processing

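Of 82 values of 11 results under the alternatives, 50 moved by more than the spread used for each and 32 did not. The median log2 ratio between replicates ran from -0.04 to 0.23 around -0.00 under the 6 alternatives that gave a value. All 6 lay within its spread, but a median would rarely move by an SD over single domains, so nothing is read from that. Why values moved was not tested beyond the construction of each alternative. The 11 results were, in this order where given below: 429 domains, a median length of 4060 bp, 5.42% of unique tags, a tag density of 27.0, a best fold of 5.61, a summit position of 0.53, 52.2% of domain peaks with a rate under 5%, a gap of 447 bp, 29.8% of domains with 1 peak in both lists and 67.4% spanning 3000 bp in both, with the log2 ratio last. Values are means over the replicates where each has one. The 52.2% is the mean of 23.5% in replicate 1 and 81.0% in replicate 2.

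With an overlap of at least 50% of both peaks there were 238 domains, a length of 3839.5 bp, 2.66% of tags, a density of 27.4, a summit position of 0.50, 100% with 1 peak in both and 43.7% spanning 3000 bp in both. The 100% follows from the construction, since 2 separate peaks of 1 list can hardly each cover 50% of the same peak. With peaks of the median score or more, 4.35% of tags, a density of 27.5, a gap of 1263 bp and 39.6% with 1 peak in both were found. Peaks with a rate under 5% gave 147 domains, 4264 bp, 1.91% of tags, a density of 28.8, a fold of 6.20, a position of 0.51, a share under 5% of 100% by construction, a gap of 11000 bp, 58.5% with 1 peak in both and 53.7% spanning in both. This alternative also left out some replicate 1 peaks with high scores, such as those of 3100 with a rate of 8.33%. Joining within 500 bp gave 934 domains, 4437 bp, 11.3% of tags, a density of 24.7, a fold of 6.12, a gap of 1979.5 bp, 6.32% with 1 peak in both and 71.8% spanning in both. At 5000 bp or more there were 129 domains of 6174 bp, with 2.69% of tags, a density of 28.9, a position of 0.50 and 76.7% spanning in both. Without the sets, which were drawn only from domains higher in replicate 2, and without the row, 4.90% of tags, a density of 26.3, a gap of 283 bp, 25.1% with 1 peak in both and 71.9% spanning in both were found.

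With 1 list alone there were 236 (without replicate 2) to 313 domains (without replicate 1), of 3959.5 to 4127 bp, with 3.39% to 4.78% of tags, densities of 26.9 to 28.6, folds of 4.70 to 5.71, positions of 0.49 to 0.56, 38.1% to 93.3% with a rate under 5% and gaps of 130 to 229 bp. One list gives no value for the shares in both lists or the ratio. No paired analysis was possible because the inputs enter only through the authors' peak calls and the results come from no test. The replicates differ in depth, model fold and fragment shift together, so the parts of these in the values cannot be told apart, and 2 replicates give a range but no firm spread.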
